A study of Homo sapiens with 8 samples.

Results

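The genes described here are subunits of the transcription factor NF-kB (NFKB1, NFKB2, REL, RELB), inhibitors that NF-kB itself induces (NFKBIA, NFKBIE, TNFAIP3) and direct targets (BIRC3, TRAF1, CD83), followed through ARP1 and H929. Both are human lines of multiple myeloma, the malignancy that arises from plasma cells. These genes, 10 of the 24351 genes in the data, were chosen by name, with earlier results of these data known. Each level is a sum over the transcripts of a gene, 44 transcripts in all, in each of 8 libraries. Of the 10 genes, 9 passed the filter on low values, 1 FPKM or more in no fewer than 2 libraries, as did 14905 genes in all, and TRAF1 did not.

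Polyadenylated RNA of each line was sequenced as paired ends in 4 genotypes: CHEK1 overexpression, the control of overexpression, CHEK1 knockdown and the control of knockdown. CHEK1 encodes the checkpoint kinase CHK1. Each genotype had 1 library from ARP1 and 1 from H929, so the lines stood as the replicates (n = 2 per genotype), and a p-value here speaks of the spread among these libraries and no wider. The labels name no vector, hairpin, dose, time or treatment, do not say whether a library came from a clone or a pool, and do not say how the controls were made. CHEK1 stood at 114 FPKM in the ARP1 overexpression library, against 78.2 FPKM in its control, and at 107 FPKM in H929, against 81.6 FPKM. The library labelled knockdown held 51.6 FPKM of CHEK1 in ARP1, against 61.0 FPKM in its control, and 84.8 FPKM in H929, against 80.7 FPKM. In H929 CHEK1 was therefore not below its control where the label says knockdown, and every direction given for that library rests on its label alone. The fitted log2 fold change of CHEK1 was 0.47 with overexpression (SE 0.20, adjusted p = 0.994 by limma). For labelled knockdown it was -0.08 (SE 0.20, adjusted p = 0.903 by limma). In ARP1 the log2 ratio for labelled knockdown, -0.24, was smaller in size than that between the controls of the arms, 0.35.

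NF-kB proteins act as dimers that are held in the cytoplasm until a signal frees them. In the canonical pathway IkB kinase marks the inhibitor IkB-alpha, the product of NFKBIA, for destruction, which releases dimers of p50 (NFKB1) with RelA or c-Rel. In the non-canonical pathway NIK and IKK-alpha have p100, the product of NFKB2, cut to p52, which pairs with RelB. NFKB2, RELB, NFKBIA, NFKBIE, TNFAIP3, BIRC3, TRAF1 and CD83 are all well known as genes that NF-kB dimers switch on, so their RNA is a common reading of the activity of the pathway. Mutations that keep NF-kB active are frequent in multiple myeloma, and plasma cells use the pathway to survive.

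The DNA before the start sites of these genes is shown first. RefSeq promoter windows, 250 bases before to 50 bases after a start site on build GRCh38.p14, were found for 8 of the 10 genes. The kappaB consensus, searched on both strands, was matched on at least 1 strand in 7 of those 8 genes, against 13.3% of 27305 genes with such a window. The genes were named as subunits and targets of NF-kB, so this share reflects that choice and says nothing about their levels here. The 8 genes also had 14 windows, against 35116 windows for the 27305 genes, and more windows per gene give more room for a match. A match describes the letters and does not show that a factor binds there. The sequences below run in the direction of each gene, with the matched bases in capitals, and stretches inside annotated transcripts were cut to 30 bases around the match.
NFKBIA, chr14:35404750-35404999, minus strand: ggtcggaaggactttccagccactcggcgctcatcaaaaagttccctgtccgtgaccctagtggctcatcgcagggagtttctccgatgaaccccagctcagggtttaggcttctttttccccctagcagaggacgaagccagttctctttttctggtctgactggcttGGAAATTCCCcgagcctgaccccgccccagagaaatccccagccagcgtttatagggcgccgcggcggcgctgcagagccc
BIRC3, chr11:102317234-102317449, plus strand: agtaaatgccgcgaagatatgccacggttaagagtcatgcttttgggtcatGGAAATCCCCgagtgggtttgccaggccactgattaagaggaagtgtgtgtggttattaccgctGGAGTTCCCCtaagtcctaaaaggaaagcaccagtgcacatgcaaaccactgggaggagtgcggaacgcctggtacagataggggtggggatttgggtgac
NFKB2, chr10:102395669-102395698, plus strand: ccccttggtattttcGGGACTTTCCtaagc
NFKB1, chr4:102501109-102501328, plus strand: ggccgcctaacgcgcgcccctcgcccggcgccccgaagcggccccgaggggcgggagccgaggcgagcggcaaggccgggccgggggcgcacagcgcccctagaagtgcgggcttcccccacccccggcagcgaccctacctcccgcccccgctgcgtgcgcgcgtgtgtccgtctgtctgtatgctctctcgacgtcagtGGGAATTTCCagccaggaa
TNFAIP3, chr6:137867188-137867217, plus strand: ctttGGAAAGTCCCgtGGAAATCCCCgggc
REL, chr2:60881518-60881547, plus strand: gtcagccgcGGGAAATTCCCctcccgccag
In NFKBIA the match lay 81 to 72 bases before the start site. TNFAIP3 held a pair of matches within the 30 bases shown, and REL held overlapping matches on both strands. BIRC3 held a match 199 to 190 bases before its start site and another 135 to 126 bases before it. Outside the stretch shown, NFKB2 was also matched 176 to 167 bases before the same start site and at 2 places of another window. In CD83 the consensus was matched at 3 places of 1 window, and in the TRAF1 windows it was not found.

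FPKM counts sequenced fragments per length of transcript and per size of the library, so levels can be set side by side between genes. Over the 8 libraries NFKB2 was the most abundant at 55.8 ± 11.5 FPKM (SD), before NFKBIA at 43.0 ± 10.3 FPKM, NFKB1 at 33.7 ± 1.77 FPKM and RELB at 28.5 ± 14.1 FPKM. TNFAIP3 followed at 23.7 ± 11.96 FPKM, NFKBIE at 15.5 ± 3.10 FPKM and REL at 13.6 ± 3.91 FPKM. BIRC3 at 4.03 ± 2.35 FPKM, CD83 at 2.54 ± 1.16 FPKM and TRAF1 at 0.774 ± 0.664 FPKM closed the order. Of neighbours in this order, REL and BIRC3 alone did not overlap, with 9.55 FPKM as the lowest library of REL and 8.84 FPKM as the highest of BIRC3. NFKB1 varied least, with its highest library 1.15 times its lowest, and BIRC3 most, at 7.42 times.

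**Figure D1:**
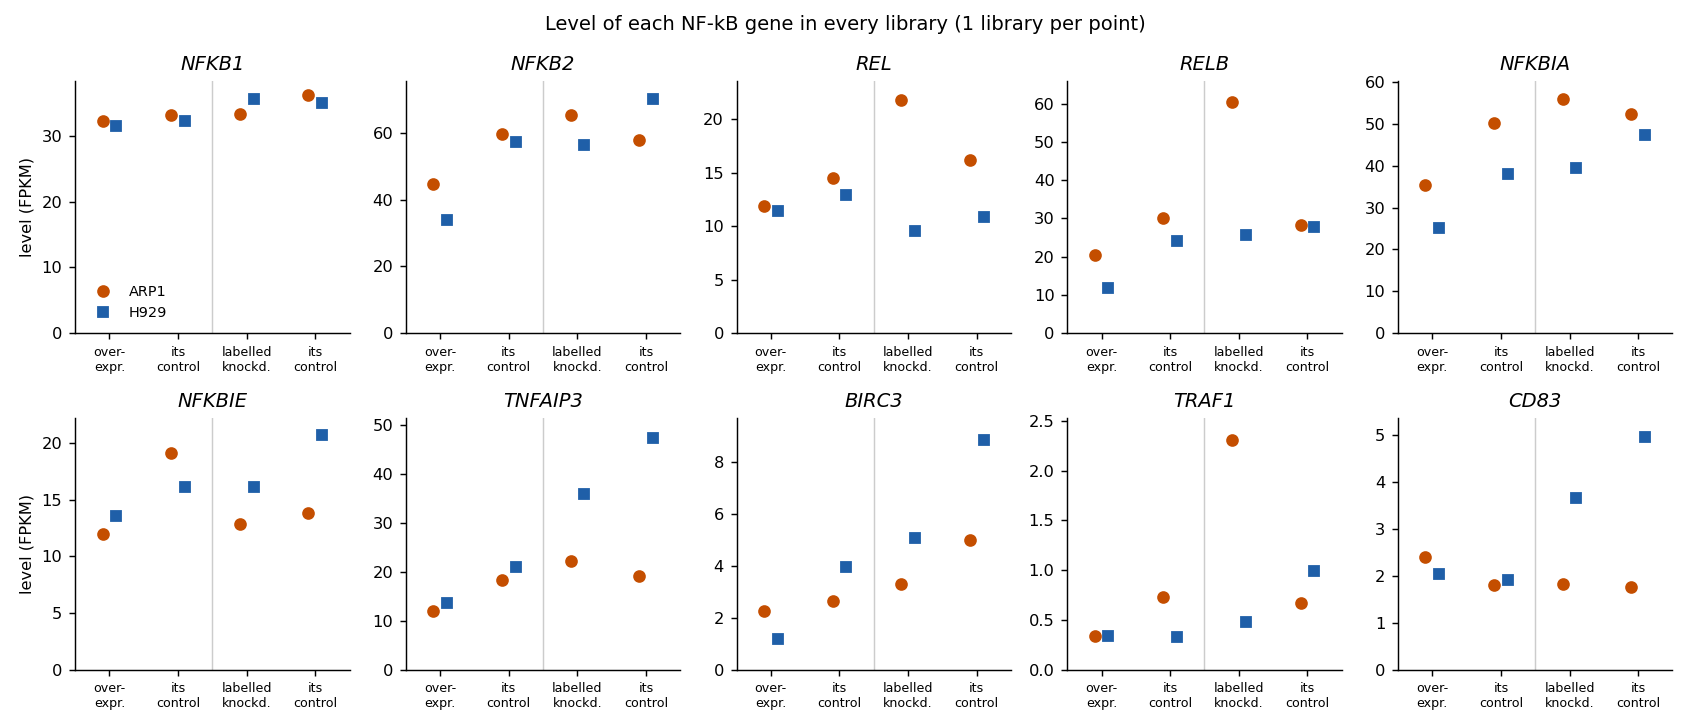
Level in FPKM of each of the 10 genes (vertical axis, starting at 0 and scaled per gene) in the overexpression library, its control, the library labelled knockdown and its control; each point is 1 library, circles ARP1 and squares H929. The overexpression point is the lowest of its line in both lines for NFKB1, NFKB2, RELB, NFKBIA, NFKBIE, TNFAIP3 and BIRC3, while RELB reaches 60.4 FPKM in the ARP1 library labelled knockdown.

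The libraries summed to 631871 to 693299 FPKM each, and no read depth is given. All 9 plasma cell markers passed the filter, with a summed level of 3166 to 5836 FPKM, and SLAMF7, at 13.3 to 27.4 FPKM in ARP1, was the 1 of them near 0 in H929 (0.0778 to 0.201 FPKM). Markers of B cells summed to 13.2 to 42.9 FPKM, mostly from CIITA. CD3D, CD3G, NKG7 and ITGAM were listed at 0 throughout. Other T and NK cell markers summed to at most 14.3 FPKM, through GNLY in the H929 overexpression library, myeloid markers to at most 2.89 FPKM, those of stroma and epithelium to at most 17.1 FPKM and erythroid ones to at most 1.91 FPKM.

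With CHEK1 overexpression most of the NF-kB genes stood low in both lines. They were chosen with earlier results of these data known, and several varied together over the libraries. The shares of all genes beside their counts are therefore descriptions and not tests. Of the 9 tested genes, 8 were lower than in the control of the same line in both ARP1 and H929, against 30.1% of all 14905 genes, and 4 (NFKB2, RELB, NFKBIA and TNFAIP3) were lower by 1.25-fold or more in both, against 4.45% of all genes. The median log2 fold change of the 9 genes was -0.54 (-0.40 in ARP1 and -0.58 in H929), beside -0.01 over all genes. None passed limma with Benjamini-Hochberg adjustment over all genes at 0.05, where 1 gene in all, 0.00671%, was called lower. At an unadjusted p under 0.05, 3 of the 9 (NFKB2, RELB and NFKBIA) were lower and 0 higher, against 2.58% and 1.87% of all genes. Fold changes here are on the scale of log2 of FPKM plus 1, which understates differences of low genes such as BIRC3, CD83 and TRAF1. In bulk RNA fewer cells that express a gene and less of its RNA per cell cannot be told apart.

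Among the subunits, NFKB2 and RELB, which form the non-canonical dimer, stood lower, and NFKB1 hardly differed. NFKB2 (ENSG00000077150, chr10:102394110-102402529, plus strand, build GRCh38), the precursor p100, stood at 44.9 FPKM with overexpression in ARP1, against 59.8 FPKM in its control, and at 34.0 FPKM in H929, against 57.4 FPKM. Both overexpression libraries lay below all 6 others, which held 56.6 to 70.3 FPKM. The log2 fold change was -0.57 (SE 0.18), with adjusted p = 0.994 by limma. RELB (ENSG00000104856, chr19:45001430-45038198, plus strand) held 20.5 FPKM with overexpression in ARP1, against 30.01 FPKM, and 11.8 FPKM in H929, against 24.2 FPKM. Here too the overexpression libraries were the lowest pair of the 8, and the log2 fold change was -0.75 (SE 0.28, adjusted p = 0.994 by limma).

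NFKB1 (ENSG00000109320, chr4:102501329-102617302, plus strand), the precursor of p50, stood at 32.4 FPKM with overexpression in ARP1, against 33.2 FPKM, and at 31.5 FPKM in H929, against 32.2 FPKM. The overexpression library was the lowest of its line each time, yet the log2 fold change was -0.04 (SE 0.13), within the spread between libraries. REL (ENSG00000162924, chr2:60881521-60931610, plus strand), which encodes c-Rel, stood at 11.8 FPKM with overexpression in ARP1, against 14.5 FPKM, and at 11.4 FPKM in H929, against 12.9 FPKM (log2 fold change -0.22, SE 0.27). Neither overexpression library reached a control of overexpression, but the gap was smaller than the SE of the estimate. In H929 the lowest REL level was that of the library labelled knockdown, 9.55 FPKM. The level of REL is uncertain, because 43.3% of its exon bases are shared with the overlapping noncoding gene AC010733.2 on the same strand.

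The inhibitors that close the feedback loop stood lower in both lines. NFKBIA (ENSG00000100906, chr14:35401511-35404749, minus strand) held 35.3 FPKM with overexpression in ARP1, against 50.3 FPKM in its control, and 25.1 FPKM in H929, against 38.0 FPKM. The groups did not overlap, and the lines gave nearly equal log2 ratios, -0.50 in ARP1 and -0.58 in H929. Its log2 fold change of -0.54 (SE 0.14) had the smallest unadjusted p of the 9 genes, 0.00718 by limma, and stood 80th of 14905 genes by p, with adjusted p = 0.994. TNFAIP3 (ENSG00000118503, chr6:137867188-137883312, plus strand) encodes A20, an enzyme that edits ubiquitin chains and shuts the pathway down. TNFAIP3 stood at 11.97 FPKM with overexpression in ARP1, against 18.3 FPKM, and at 13.5 FPKM in H929, against 20.9 FPKM.

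Both overexpression libraries lay below every other library for TNFAIP3. The ratios were -0.57 in ARP1 and -0.59 in H929, and the log2 fold change was -0.58 (SE 0.27, adjusted p = 0.994 by limma). An antisense gene, AL357060.1, covers 1.88% of TNFAIP3 exon bases, and no source says whether reads kept their strand. NFKBIE (ENSG00000146232, chr6:44258166-44265788, minus strand), which encodes IkB-epsilon, stood at 11.96 FPKM with overexpression in ARP1, against 19.1 FPKM, and at 13.6 FPKM in H929, against 16.1 FPKM. The overexpression library was the lowest of its line in both lines, but the difference was smaller in H929 (log2 ratio -0.23) than in ARP1 (-0.63), and the log2 fold change was -0.43 (SE 0.21, adjusted p = 0.994 by limma).

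The 3 downstream targets were scarcer and differed among themselves. BIRC3 (ENSG00000023445, chr11:102317450-102339403, plus strand), which encodes the ubiquitin ligase cIAP2 that blocks cell death downstream of TNF receptors, stood at 2.27 FPKM with overexpression in ARP1, against 2.63 FPKM, and at 1.19 FPKM in H929, against 3.95 FPKM. The overexpression libraries were again the lowest pair, yet the log2 ratio was -0.15 in ARP1 and -1.18 in H929, and the log2 fold change was -0.66 (SE 0.33, adjusted p = 0.994 by limma). CD83 (ENSG00000112149, chr6:14117256-14136918, plus strand), a surface protein of activated antigen-presenting and B cells, stood at 2.39 FPKM with overexpression in ARP1, against 1.81 FPKM, and at 2.03 FPKM in H929, against 1.91 FPKM. The overexpression libraries stood above both of their controls, and CD83 was the 1 tested gene not lower, at a log2 fold change of 0.16 (SE 0.34, adjusted p = 0.996 by limma). TRAF1 (ENSG00000056558, chr9:120902393-120929173, minus strand), an adaptor of TNF receptors, was barely present. It stood at 0.338 FPKM with overexpression in ARP1, against 0.729 FPKM, and at 0.341 FPKM in H929, against 0.329 FPKM, so the groups overlapped.

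**Figure D2:**
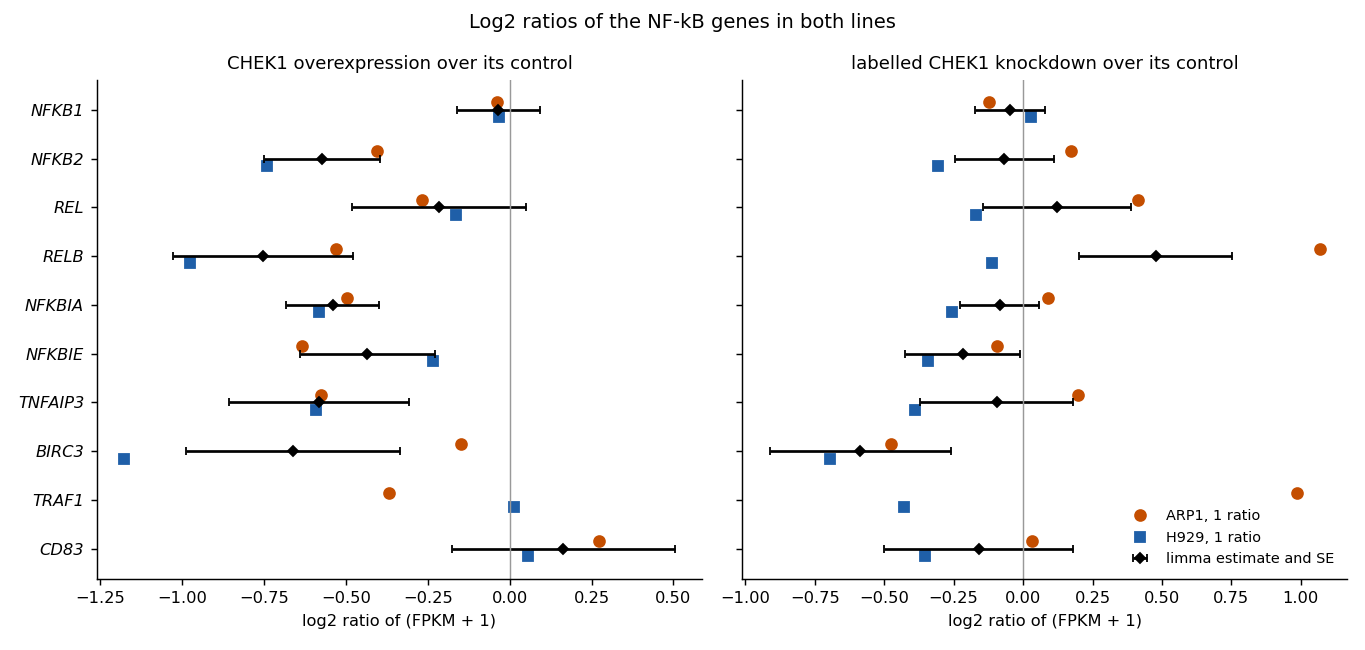
Log2 ratio of FPKM plus 1 (horizontal axis) for each of the 10 genes, with overexpression over its control in 1 panel and labelled knockdown over its control in the other; circles are ARP1, squares H929, and diamonds with bars the limma estimate and its SE. With overexpression 8 of the 9 tested genes have both ratios below 0, whereas in the knockdown panel most pairs of ratios lie on opposite sides of 0; TRAF1 has no estimate.

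Each line's overexpression library can also be set against all 3 others of the line. In both lines the overexpression library was the lowest of the 4 for 7 of the 9 tested genes (NFKB1, NFKB2, RELB, NFKBIA, NFKBIE, TNFAIP3 and BIRC3), against 12.6% of all genes. The exceptions were REL and CD83. This count was added after the values had been seen. It was 7 to 8 when any 1 library was left out, but leaving out a library could not lower it, so this range is no check. Without a line's overexpression library only the other line was counted. The share of all genes was then 31.2% without that of ARP1 and 27.0% without that of H929. Summed markers of B cells were also lower with overexpression, 25.7 against 33.2 FPKM in ARP1 and 13.2 against 17.1 FPKM in H929. Summed plasma cell markers stood at 4708 against 5836 FPKM in ARP1 and at 4866 against 4187 FPKM in H929. Most of each sum was JCHAIN, at 2895 against 3521 FPKM in ARP1 and 3460 against 2593 FPKM in H929. SDC1, XBP1, IRF4, MZB1 and SLAMF7 were each lower with overexpression in both lines, and TNFRSF17 was higher in both. JCHAIN, PRDM1 and CD38 differed in direction between the lines. T and NK cell markers stood at 1.14 against 0.727 FPKM in ARP1 and at 14.3 against 3.25 FPKM in H929. The part of these markers in the result was not tested.

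**Figure D3:**
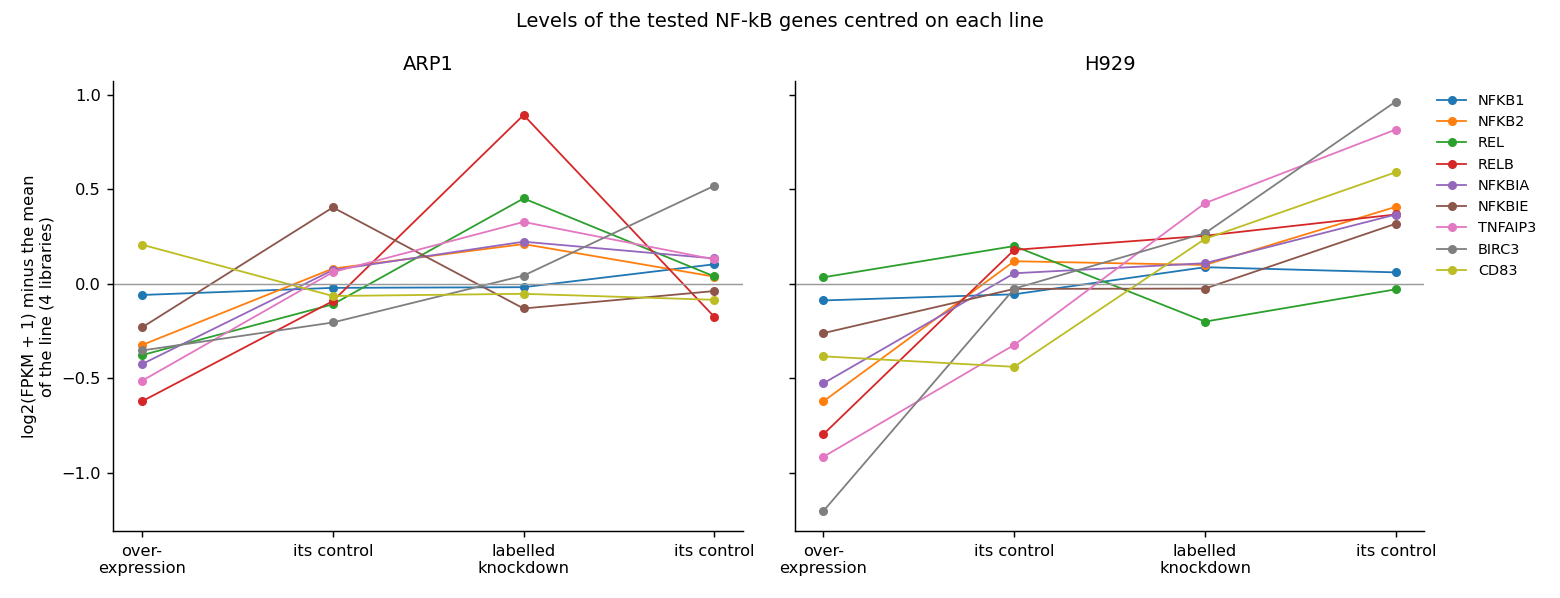
Level of each of the 9 tested genes as log2 of FPKM plus 1 minus the mean of the 4 libraries of its line (vertical axis), for the overexpression library, its control, the library labelled knockdown and its control, with ARP1 and H929 in separate panels. Each point is 1 library and lines only join points of the same gene; most genes have their lowest point in the overexpression library, and RELB has its highest in the ARP1 library labelled knockdown.

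Medians for the rest of the pathway lay nearer to that of all genes. Median log2 fold changes with overexpression were -0.04 for 6 other subunits and inhibitors, -0.05 for 27 kinases and adaptors, -0.05 for 11 further brakes and 0.12 for the 11 tested of 20 receptors and ligands, beside -0.01 over all genes. Kinases and adaptors were lower in both lines in 8 of 27 and higher in both in 8, near the 30.1% and 28% of all genes, and brakes in 2 and 4 of 11. RELA, which encodes the main activating subunit, stood at 32.4 against 36.8 FPKM in ARP1 and at 60.0 against 62.1 FPKM in H929. NFKBIZ, an inducible nuclear IkB protein, stood at 5.11 against 7.50 FPKM in ARP1 and at 3.49 against 5.72 FPKM in H929, which gave -0.53 (SE 0.18, adjusted p = 0.994 by limma).

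Other genes that NF-kB is known to induce had a median of -0.19 over the 29 tested of 38, and 17 of them were lower in both lines, 4 higher in both, and 11 lowest in the overexpression library of both lines, against 30.1%, 28% and 12.6% of all genes. SQSTM1, which encodes the autophagy receptor p62, stood at 74.0 against 83.2 FPKM in ARP1 and at 50.6 against 137 FPKM in H929. CXCL10, a chemokine gene also driven by interferon, stood at 1.55 against 6.11 FPKM in ARP1 and at 0.0912 against 0.132 FPKM in H929. The abundant B2M, the light chain of MHC class I, stood at 1476 against 1506 FPKM in ARP1 and at 1301 against 1185 FPKM in H929. It was thus slightly lower in ARP1 and higher in H929 (log2 ratios -0.03 and 0.13). Of a published index of 11 genes for NF-kB activity in myeloma, 10 were tested, 9 were lower in both lines and MALT1 was higher in both, with a median of -0.56. Of the 11 genes, 6 are among the genes described above. IL2RG, PLEK and WNT10A are also in the list of other induced genes, and MALT1 is among the kinases and adaptors. Only CD74 is in none of these, so the index is not a separate reading. CD74, the invariant chain of MHC class II, had its largest difference, 14.4 against 49.5 FPKM in ARP1 and 1.97 against 11.4 FPKM in H929 (-1.89, SE 0.23, adjusted p = 0.357 by limma). No gene of any of these lists passed the test in this comparison.

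In the libraries labelled knockdown the NF-kB genes had no common direction. Of the 9 tested genes, 2 (NFKBIE and BIRC3) were lower than their control in both lines, against 28.9% of all genes, and 0 were higher in both, against 27.2%. The median log2 fold change was -0.08, with 0.09 in ARP1 and -0.31 in H929, beside -0.02 over all genes. Its sign depended on the control, at 0.01 with both controls pooled and 0.10 with the other control of the line, and on single libraries, at -0.31 when the ARP1 control of knockdown was left out and 0.08 when the H929 one was. None was called by limma after adjustment, where 0.0134% of all genes were called lower and 0 higher, and none reached an unadjusted p under 0.05 in either direction, against 4.72% lower and 4.42% higher.

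Of the 9 tested genes, ARP1 and H929 parted most at RELB. The ARP1 library labelled knockdown held 60.4 FPKM of RELB, against 28.3 FPKM in its control, and the H929 one 25.5 FPKM, against 27.7 FPKM. That ARP1 value was the highest RELB level of the 8 libraries, and the log2 ratios were 1.07 in ARP1 and -0.11 in H929, giving a fitted 0.48 (SE 0.28, adjusted p = 0.6 by limma). TRAF1 stood at 2.31 FPKM in the same ARP1 library, against 0.673 FPKM, and at 0.481 FPKM in H929, against 0.993 FPKM. REL stood at 21.8 FPKM in ARP1, against 16.1 FPKM, and at 9.55 FPKM in H929, against 10.9 FPKM. For these 3 genes the ARP1 library labelled knockdown was thus the highest of all 8, while the H929 one lay below its control. As a whole library, too, the ARP1 one stood apart. Its Pearson r with the other ARP1 libraries was 0.9424 to 0.9506, against 0.9675 to 0.9779 among those others. The part of this in the values of single genes in that library was not tested.

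NFKB2 (65.5 against 58.0 FPKM), NFKBIA (55.9 against 52.5 FPKM) and TNFAIP3 (22.2 against 19.2 FPKM) were likewise above their control in ARP1. In H929 the same genes were below it, NFKB2 at 56.6 against 70.3 FPKM, NFKBIA at 39.5 against 47.4 FPKM and TNFAIP3 at 35.8 against 47.2 FPKM. BIRC3 was below its control in both, at 3.31 against 4.99 FPKM in ARP1 and 5.07 against 8.84 FPKM in H929, which gave -0.59 (SE 0.33, adjusted p = 0.593 by limma). NFKBIE was also below its control in both, at 12.9 against 13.8 FPKM in ARP1 and 16.1 against 20.7 FPKM in H929. NFKB1 stood at 33.3 against 36.3 FPKM in ARP1 and at 35.7 against 35.0 FPKM in H929, and CD83 at 1.83 against 1.77 FPKM and at 3.66 against 4.95 FPKM. Direction by line was therefore not shared by 7 of the 9 tested genes, and the difference between the lines has no test here, since a line holds each genotype once.

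Elsewhere in the pathway, median log2 fold changes in the libraries labelled knockdown were -0.33 for other subunits and inhibitors, -0.02 for kinases and adaptors, 0.02 for brakes, -0.16 for receptors and ligands and -0.09 for other induced genes, beside -0.02 over all genes. Other subunits and inhibitors were lower in both lines in 4 of 6 and higher in both in 1, kinases and adaptors in 12 and 4 of 27, brakes in 4 and 2 of 11, receptors and ligands in 4 and 3 of 11, and induced genes in 12 and 5 of 29. Over all genes 28.9% were lower and 27.2% higher in both lines. MAP3K8, a kinase that links NF-kB to MAP kinases, stood at 3.41 against 8.58 FPKM in ARP1 and at 4.24 against 8.19 FPKM in H929, which gave a log2 fold change of -0.96 (SE 0.29, adjusted p = 0.511 by limma). CHUK, which encodes IKK-alpha, stood at 11.9 against 19.2 FPKM in ARP1 and at 15.5 against 20.4 FPKM in H929. CYLD, which encodes a deubiquitinase that damps the pathway, stood at 32.1 against 16.4 FPKM in ARP1 and at 15.8 against 12.97 FPKM in H929. TNFRSF17, the receptor BCMA of plasma cells and itself one of their markers, stood at 195 against 68.4 FPKM in ARP1 and at 28.8 against 23.0 FPKM in H929. Of the induced genes, IER3, a stress-induced survival gene, stood at 6.23 against 11.7 FPKM in ARP1 and at 6.65 against 16.6 FPKM in H929 (log2 ratios -0.81 and -1.20, adjusted p = 0.494 by limma). None of the genes of these lists was called by limma after adjustment in this comparison.

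Set against each other, the overexpression and knockdown effects differed most at RELB, whose overexpression effect was lower than its labelled knockdown effect by log2 1.23 (estimate -1.23, SE 0.39, adjusted p = 0.621 by limma). The same difference was -0.51 for NFKB2 (SE 0.25) and -0.46 for NFKBIA (SE 0.20), each with adjusted p = 0.622 by limma. The effect of overexpression was lower than that of labelled knockdown in both lines for 4 of the 9 tested genes, against 29.3% of all genes. None of the 9 was called, where 0.00671% of all genes were called in each direction.

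The controls of the 2 arms were not alike for all of these genes. BIRC3 stood at 2.63 and 3.95 FPKM in the ARP1 and H929 controls of overexpression, against 4.99 and 8.84 FPKM in the controls of knockdown (log2 fold change -0.86, SE 0.33, adjusted p = 0.428 by limma). TNFAIP3 stood at 18.3 and 20.9 FPKM, against 19.2 and 47.2 FPKM (-0.60, SE 0.27, adjusted p = 0.485 by limma), and CD83 at 1.81 and 1.91 FPKM, against 1.77 and 4.95 FPKM (-0.50, SE 0.34, adjusted p = 0.618 by limma). For TNFAIP3 and CD83 the difference lay in H929, with log2 ratios of -1.14 and -1.03, beside -0.07 and 0.02 in ARP1. Control of overexpression was below control of knockdown in both lines for 4 of the 9 tested genes, against 32.9% of all genes, and no member of the 9 was called, where 0.0335% of all genes were called lower and 0.0201% higher. Vector, handling and batch of an arm cannot be told apart in these controls. Against the other control of its line, BIRC3 with overexpression had a log2 fold change of -1.52, and in the libraries labelled knockdown it turned to 0.27.

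Between the lines, NFKBIA was the 1 gene of the 9 called by limma after adjustment, against 13.7% of all genes called higher and 13.4% called lower in ARP1. NFKBIA stood at 48.5 ± 9.09 FPKM in ARP1 and 37.5 ± 9.25 FPKM in H929 (SD, n = 4 libraries each). It was higher in ARP1 in each of the 4 genotypes, by log2 0.48 with overexpression, 0.39 in its control, 0.49 in the library labelled knockdown and 0.15 in its control. The log2 fold change was 0.38 (SE 0.10, adjusted p = 0.0343 by limma), although the 4 libraries of each line overlapped. The call depended on single libraries and on the processing, with adjusted p = 0.0717 by limma when each library was scaled to 1 total and 0.0617 without a variance trend. It was kept without the ARP1 (adjusted p = 0.0488) or the H929 (0.0482) library labelled knockdown, by limma, and lost without any of the other 6. Its adjusted p by limma was 0.12 without the ARP1 or the H929 overexpression library, 0.122 without either control of overexpression, and 0.0572 and 0.0575 without the ARP1 and the H929 control of knockdown.

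RELB was also higher in ARP1 in all 4 genotypes, at 34.8 ± 17.6 FPKM against 22.3 ± 7.15 FPKM in H929 (SD, n = 4 libraries each; log2 fold change 0.57, SE 0.19), with adjusted p = 0.0707 by limma. REL, at 16.1 ± 4.22 against 11.2 ± 1.39 FPKM, shared that order (0.46, SE 0.19, adjusted p = 0.113 by limma). Together with NFKBIA these made 3 of 9 genes higher in ARP1 in all 4 genotypes, against 23.6% of all genes. TNFAIP3 was the 1 gene lower in ARP1 in all 4, against 24.6% of all genes, at 17.9 ± 4.31 against 29.4 ± 15.1 FPKM (-0.57, SE 0.19, adjusted p = 0.072 by limma). The log2 ratio of TNFAIP3 was -0.16 with overexpression, -0.18 in its control, -0.66 in the library labelled knockdown and -1.25 in its control. The smallest ratio of RELB was 0.03, in the control of knockdown, and that of REL was 0.05, with overexpression. The inhibitors NFKBIA and TNFAIP3 thus stood in opposite order between the lines, though TNFAIP3 was not called. No gene of the 9 had all 4 libraries of a line above or below those of the other, against 13.3% and 13.7% of all genes.

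**Figure D4:**
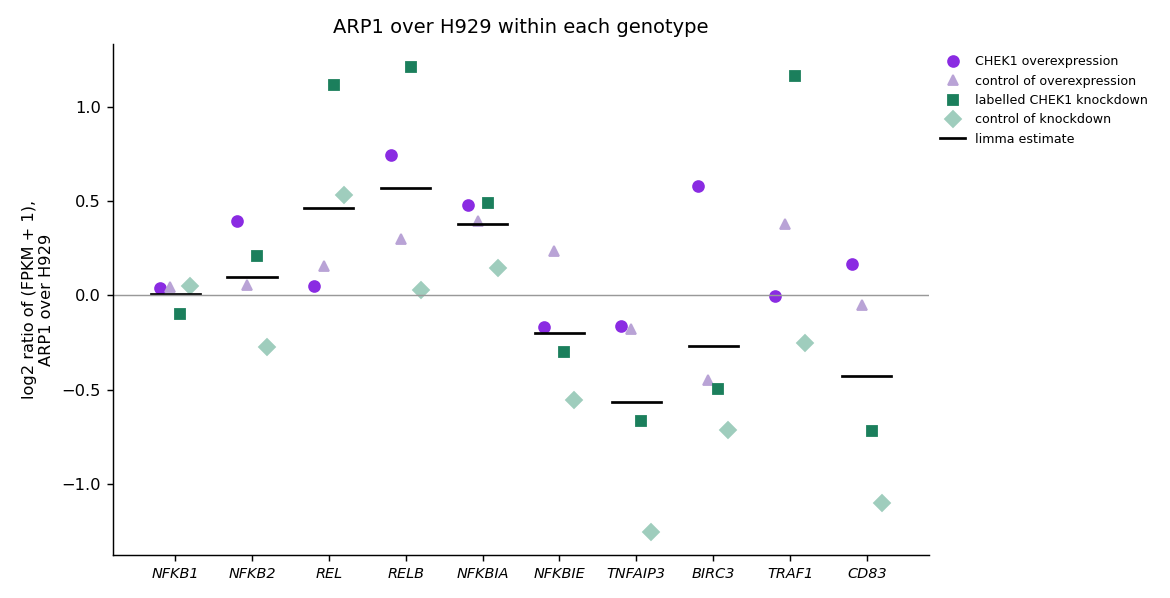
Log2 ratio of FPKM plus 1, ARP1 over H929 (vertical axis), for each of the 10 genes within overexpression, its control, the library labelled knockdown and its control, with a bar for the limma estimate. All 4 points of REL, RELB and NFKBIA lie above 0 and all 4 of TNFAIP3 below it; TRAF1 has no bar because it was not tested.

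Some other genes of the pathway passed the test between the lines, where 13.7% of all genes were called higher and 13.4% lower in ARP1. BCL3, a nuclear IkB protein that acts with p50 and p52, rose in ARP1, at 8.52 to 22.9 FPKM against 3.31 to 11.4 FPKM in H929, a log2 fold change of 1.0001 (SE 0.13, adjusted p = 0.00416 by limma). RELA fell in ARP1, at 31.8 to 54.4 against 57.7 to 62.1 FPKM (-0.65, SE 0.14, adjusted p = 0.0188 by limma). TRAF3, the adaptor that holds NIK low and so restrains the non-canonical pathway, fell in ARP1 as well, at 11.9 to 15.5 against 24.3 to 30.5 FPKM (-1.01, SE 0.12, adjusted p = 0.0031 by limma). TNFRSF17 rose in ARP1 (1.496, SE 0.30, adjusted p = 0.0144 by limma).

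By list, limma called 1 of 6 other subunits and inhibitors higher and 1 lower in ARP1, 3 of 27 kinases and adaptors higher and 2 lower, 3 of 11 brakes higher and 0 lower, 3 of 11 receptors and ligands higher and 3 lower, and 10 of 29 induced genes higher and 3 lower. These shares stand beside 13.7% and 13.4% of all genes. Among the induced genes ICAM1, an adhesion molecule, stood at 3.20 to 5.83 FPKM in ARP1 against 0.138 to 0.579 FPKM in H929 (2.02, SE 0.16, adjusted p = 0.000691 by limma). CCND2, a cyclin that drives entry into the cell cycle, stood at 468 to 647 against 108 to 185 FPKM (1.90, SE 0.13, adjusted p = 0.00049 by limma). Of the receptors, CD40 was listed at 0 in all libraries, LTBR at 0 in all but 1 of them, and TNF reached at most 0.0604 FPKM.

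The gene sums rest on 44 listed transcripts, all annotated as coding, of which 8 had a mean of 0 FPKM at 5 decimals. NFKBIA-201 made up 92.5% of NFKBIA and RELB-207 83.9% of RELB. RELB-207 stood at 17.2 FPKM with overexpression in ARP1, against 23.5 FPKM, and at 10.3 FPKM in H929, against 19.5 FPKM. In the ARP1 library labelled knockdown it held 52.7 FPKM, against 22.1 FPKM in its control, so the high RELB sum there came from this main transcript. NFKB2-201, 52.9% of its gene, stood at 21.5 against 30.9 FPKM with overexpression in ARP1 and at 17.3 against 28.7 FPKM in H929. The second NFKB2 transcript, NFKB2-203, had 12.7 against 15.3 FPKM and 8.81 against 19.6 FPKM, so both of the main NFKB2 transcripts shared the direction of the sum.

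Not all listed transcripts followed the sum of their gene, in CD83 and TNFAIP3 among others. CD83-202 stood at 2.001 FPKM with overexpression in ARP1, against 6.8e-05 FPKM, and at 1.04 FPKM in H929, against 0.0018 FPKM. CD83-201 had the opposite order, 0.390 against 1.81 FPKM in ARP1 and 0.992 against 1.91 FPKM in H929. The CD83 sum, close between these libraries, therefore hides opposite differences of its transcripts, whose lengths are 2307 and 2471 nt. CD83-202 was not particular to overexpression. In the libraries labelled knockdown it stood at 1.40 FPKM in ARP1, against 0.775 FPKM, and at 1.13 FPKM in H929, against 0.00998 FPKM. TNFAIP3-201, 50.2% of its gene, stood at 6.76 against 6.57 FPKM with overexpression in ARP1 and at 8.08 against 12.7 FPKM in H929. TNFAIP3-208 stood at 2.55 against 6.68 FPKM in ARP1 and at 1.63 against 2.88 FPKM in H929. In the ARP1 library labelled knockdown TNFAIP3-208 held 6.15 FPKM, against 0.493 FPKM in its control. TNFAIP3-201 had the opposite order there, 8.68 against 14.1 FPKM, and the sum of the gene was 22.2 against 19.2 FPKM. NFKBIE-204 followed its sum, at 5.72 against 10.9 FPKM with overexpression in ARP1 and at 5.93 against 6.79 FPKM in H929. NFKBIE-201, 28.7% of the gene, did so in ARP1 (3.92 against 4.57 FPKM) but not in H929 (4.88 against 4.65 FPKM). How fragments shared by overlapping transcripts were divided is not recorded per transcript, so such splits are less certain than the sums.

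**Figure D5:**
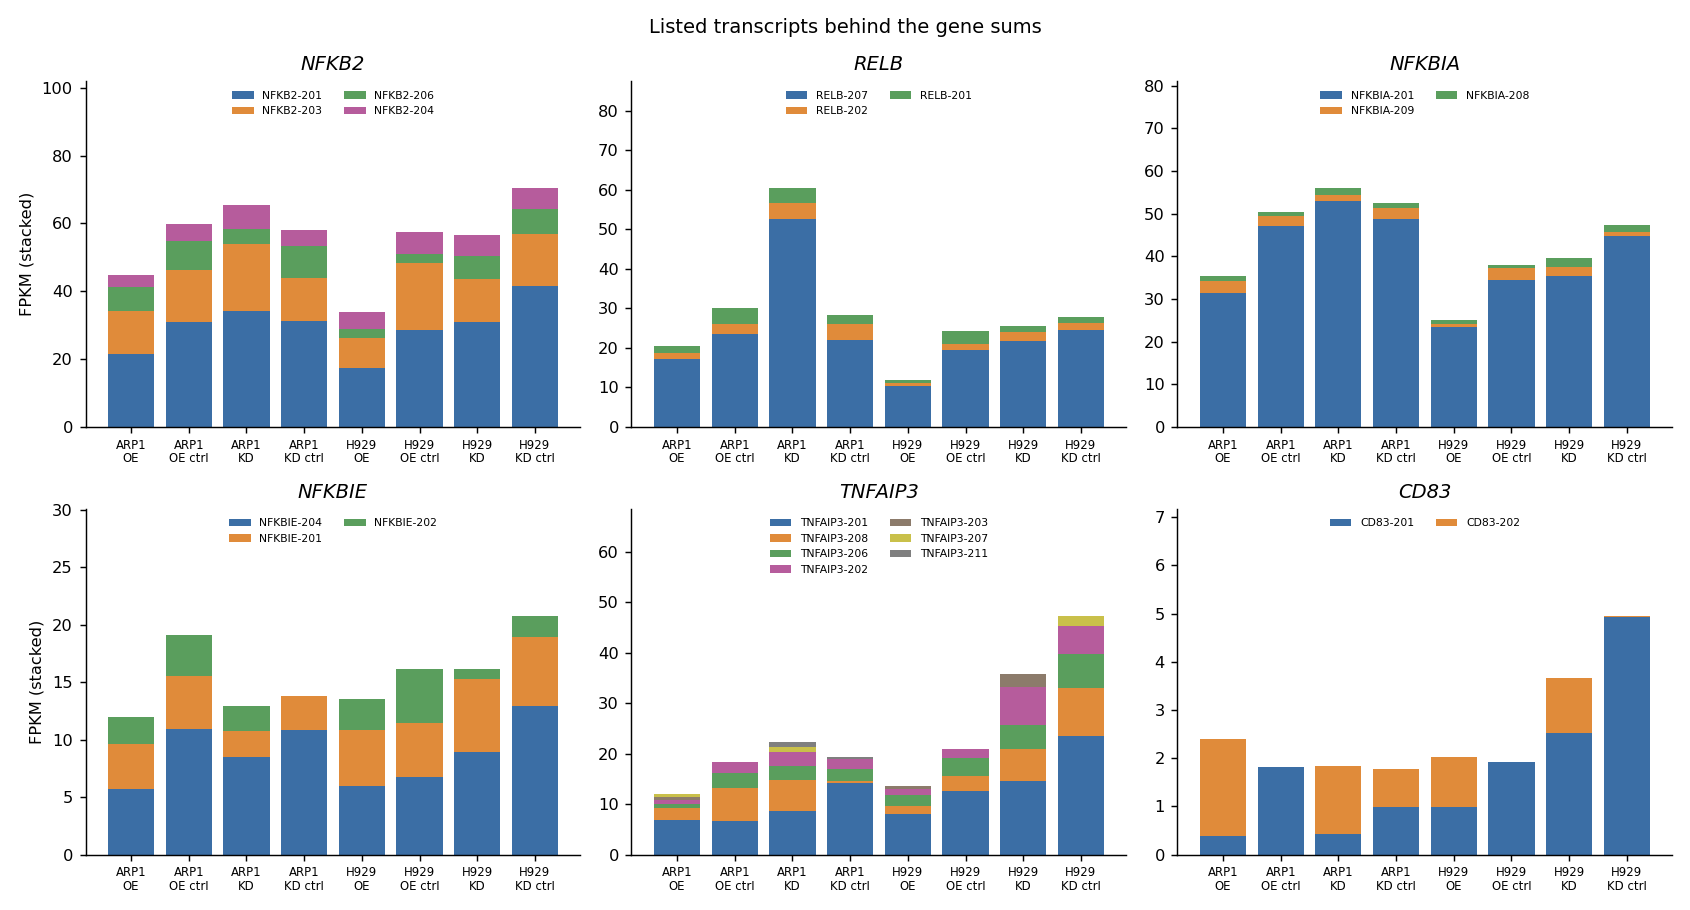
Stacked FPKM of the listed transcripts of NFKB2, RELB, NFKBIA, NFKBIE, TNFAIP3 and CD83 (vertical axis, starting at 0) in each of the 8 libraries, where OE is overexpression, KD the library labelled knockdown and ctrl the control of each. The main transcript carries NFKBIA and RELB, reaching 52.7 FPKM for RELB-207 in the ARP1 library labelled knockdown, while CD83-202 is at or near 0 in both controls of overexpression and 2.001 and 1.04 FPKM with overexpression. CD83-202 is also present in the libraries labelled knockdown, at 1.40 FPKM in ARP1 and 1.13 FPKM in H929.

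Centred on each line, the 9 genes had a mean profile to which NFKBIA (r = 0.97 with the mean of the other 8), TNFAIP3 (0.97), NFKB2 (0.96) and BIRC3 (0.89) were closest over the 8 libraries. RELB stood at 0.78, NFKB1 at 0.66, NFKBIE at 0.56, CD83 at 0.48 and REL at 0.13. Of 9315 genes with a mean of at least 5 FPKM, those most like the profile by Pearson r over the 8 libraries were ZNF516 (0.995), CHTF8 (0.991), GULP1 (0.988), CAMK4 (0.979) and APBA3 (0.977). GULP1, for example, stood at 12.5 FPKM with overexpression in ARP1, against 22.9 FPKM, and at 0.710 FPKM in H929, against 2.58 FPKM. The genes least like it were FARSB (-0.978), RCN2 (-0.975) and CDC25B (-0.970), and CDC25B, a phosphatase that starts mitosis, stood at 47.7 against 38.9 FPKM in ARP1 and at 83.6 against 64.0 FPKM in H929. These values describe 8 libraries that also differ in genotype and were picked as extremes of many genes.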

How the data were processed

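RNA was measured in 8 libraries of ARP1 and H929, 1 per line and genotype, grouped by the labels. The authors deposited FPKM per transcript; per the submitters' processing notes Bowtie 0.12.2, HISAT2 2.0 and StringTie 1.3.0 were named, with the mouse build mm8, although the transcript identifiers are human. The human build was not given in the sources used, nor was read depth, so no counting error could be computed.

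Transcripts (87707 of 88209) were joined to 24351 genes with GENCODE 29 on GRCh38 and summed. Log2 of FPKM plus 1 was fitted in limma 3.58.1 (R 4.3.3) for 14905 genes, with genotype and line as terms, a variance trend, two-sided tests and Benjamini-Hochberg adjustment over all genes at 0.05 (3 residual and 3.7 prior degrees of freedom). The line is the pair, from the cell line labels; deviations of same-line libraries correlated at 0.52 to 0.668 over 6 pairs. On simulated data for the overexpression contrast with 14905 genes, limma called 45 of 100 genes shifted by log2 1 and 83 of 100 shifted by log2 2, with 8 false calls.

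The genes and lists were chosen with earlier results of these data known. Named from each list were called genes (in part given as counts), the 2 most abundant, and the 2 with the largest change per contrast (of like sign in both lines for overexpression and knockdown); not all are printed. Likeness used genes with a mean FPKM of at least 5. Promoters came from RefSeq, GRCh38.p14. Alternatives were a pseudocount of 0.1, other filters, scalings, controls, variance models and transcript sums, no line block, the libraries of a comparison alone, and each library left out.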

Additional observations from a re-analysis of the deposited data

Results flagged for a closer look

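In 22 groups of 4 libraries of a line (10 genes and CHEK1 in each line), 2 had a highest library set apart from the other 3, where chance sets about 1 in 20 apart. These were CHEK1 in H929, at 107.4 FPKM in the overexpression library, and CD83 in ARP1, at 2.391 FPKM in the overexpression library.

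Log2 ratios to the control had opposite signs in ARP1 and H929 for 8 of the 10 genes in the libraries labelled knockdown and for 1 with overexpression. The differences below are the ARP1 ratio minus the H929 ratio, and none was tested. In the libraries labelled knockdown they were 1.4138 for TRAF1, 1.1814 for RELB, 0.5881 for TNFAIP3, 0.5837 for REL, 0.48 for NFKB2, 0.3846 for CD83, 0.3461 for NFKBIA and -0.1488 for NFKB1. With overexpression the difference was -0.3827 for TRAF1, which lay under the filter on low values. CHEK1 too differed in sign between the lines in the libraries labelled knockdown, at -0.24 in ARP1 and 0.07 in H929.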

How the results depend on the processing

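The direction of the median over the tested genes with overexpression held under all alternatives run (-0.70 to -0.49, and -0.61 to -0.37 with 1 library left out). The genes in the median were not always the same 9. They were 10 without a filter and with each library scaled to 1 total, and 8 with FPKM of at least 5. Of 605 single-gene alternatives, 563 kept direction and side of the threshold, 33 reversed, 8 lost and 1 gained a call. Calls over all genes were few and moved: main 1 for overexpression, 2 for labelled knockdown, 2 for the difference and 8 for the controls. With a pseudocount of 0.1, labelled knockdown and the difference had 1 each. Without a filter, overexpression had 2, the difference 0 and the controls 5. With FPKM of at least 5 labelled knockdown had 0, and without a trend 5. With both controls pooled overexpression and labelled knockdown had 0, and with the other control overexpression had 0. Without transcripts under 300 nt, and with coding transcripts only, overexpression, labelled knockdown and the difference had 0, and the controls 3 and 4. The libraries of a comparison alone gave 4, 4 and 22 (overexpression, labelled knockdown, controls). The cause was not tested.

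Without the line as replicate block labelled knockdown had 0 calls and the controls 2; with and without it, none of the 9 genes was called in overexpression or labelled knockdown.

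With 1 library left out, calls ran from 0 to 3 for overexpression, 0 to 1005 for labelled knockdown (1005 without the H929 library labelled knockdown), 0 to 49 for the difference, 1948 to 4136 between the lines and 0 to 14 for the controls; a group then held 1 library, assumed to vary like the others. Single genes that reversed then ran, for overexpression, from -0.23 to 0.56 for CD83 and -0.49 to 0.0577 for REL. For labelled knockdown the ranges were -0.12 to 0.0236 for NFKB1, -0.31 to 0.18 for NFKB2, -0.31 to 0.56 for REL, -0.24 to 0.0704 for NFKBIA, -0.46 to 0.0198 for NFKBIE, -0.55 to 0.36 for TNFAIP3 and -0.61 to 0.29 for CD83. Between the lines they were -0.006 to 0.0436 for NFKB1 and -0.0036 to 0.22 for NFKB2. The fold change of BIRC3 with overexpression was -0.10 without the H929 overexpression library and -1.23 without the ARP1 one.

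With both controls pooled CD83 turned to -0.0889 for overexpression, and for labelled knockdown NFKB1 to 0.0133, NFKBIA to 0.0086, TNFAIP3 to 0.21 and CD83 to 0.0919. With the other control of the line CD83 turned to -0.34 for overexpression, and for labelled knockdown NFKB1 to 0.0735, NFKB2 to 0.055, NFKBIA to 0.10, TNFAIP3 to 0.51, BIRC3 to 0.27 and CD83 to 0.34. With each library scaled to 1 total, NFKB1 between the lines turned to -0.0643. RELB between the lines had adjusted p = 0.0497 by limma with coding transcripts only.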
